A study of Mus musculus with 2 samples.

Results

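Shared intergenic DNase I peaks far from genes were the peaks of the replicate 1 library that overlapped a replicate 2 peak by at least 1 bp, lay outside the body of every protein-coding gene of GENCODE M21, and had a midpoint over 50 kb from the start of any annotated gene, coding or not. There were 1816 such regions, called members here, among 97499 replicate 1 peaks, of which 49760 were shared with replicate 2. DNase-seq marks open chromatin by the ends of fragments that DNase I cuts out of nuclei. The tissue was gastrocnemius, the fast calf muscle, of male B6CASTF1/J mice aged 25 days, which are first-generation hybrids of C57BL/6J and CAST/EiJ. Both libraries belonged to 1 group with no treatment, so conditions could not be compared. The labels describe different males, although a single donor identifier covers both, and replicate 2 was the shallower library, with 61664 peaks. Promoters of the myofibre genes Myod1, Acta1, Ckm, Mylpf, Tnnt3 and Actn3 carried peaks in both libraries, and those of Pax7 (satellite cells), Pdgfra (fibro-adipogenic progenitors) and Cdh5 (endothelium) did too. The promoters of Ptprc, Cd68, Alb, Apoa1 and Rbfox3, which mark leukocytes, liver and neurons, carried no peak in either library, while the neuronal gene Snap25 had signals of 1.75 and 2.00. Whole muscle holds several cell types, so a weak peak and a peak of a small cell population cannot be told apart.

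Open sites far from any gene start include enhancers, which act on promoters over long distances by looping, and sites bound by CTCF, the zinc-finger protein that halts cohesin and shapes those loops. In muscle, enhancers carry E-boxes read by basic helix-loop-helix proteins such as MyoD, whose preferred core is CAGCTG, and also sites for MEF2, AP-1, TEAD and NFI proteins. Deserts around developmental regulators are known to hold enhancers of single genes at great distances.

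The 9 windows below show the members on which the results on strength and motifs turn, namely the 6 strongest, and the strongest member with a footprinted match for CTCF, MEF2 and CAGCTG. Each window is the 150 bp around the peak midpoint on the plus strand of GRCm38 (mm10), read 5′ to 3′, named by its nearest protein-coding gene. Capitals mark motif matches that overlap a footprint of both libraries, a footprint being a short protected stretch that the authors called within a peak. Their positions are chr16:4475156-4475305 (Adcy9), chr10:126511636-126511785 (Atp23), chr8:126666556-126666705 (Irf2bp2), chr1:102628166-102628315 (Cdh20), chr1:122357136-122357285 (Ddx18), chr16:13160246-13160395 (Ercc4), chr4:9135906-9136055 (Clvs1), chr13:92986846-92986995 (Mtx3) and chrX:94865656-94865805 (Zxdb).
Adcy9 region: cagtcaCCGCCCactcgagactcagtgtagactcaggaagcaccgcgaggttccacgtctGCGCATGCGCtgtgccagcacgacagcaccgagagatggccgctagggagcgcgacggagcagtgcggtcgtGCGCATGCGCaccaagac
Atp23 region: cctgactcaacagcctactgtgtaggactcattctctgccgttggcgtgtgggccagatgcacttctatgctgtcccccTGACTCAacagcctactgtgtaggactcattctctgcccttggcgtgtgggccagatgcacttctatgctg
Irf2bp2 region: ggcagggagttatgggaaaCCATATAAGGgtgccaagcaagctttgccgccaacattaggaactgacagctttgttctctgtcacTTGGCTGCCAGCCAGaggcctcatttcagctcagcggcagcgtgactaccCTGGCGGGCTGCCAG
Cdh20 region: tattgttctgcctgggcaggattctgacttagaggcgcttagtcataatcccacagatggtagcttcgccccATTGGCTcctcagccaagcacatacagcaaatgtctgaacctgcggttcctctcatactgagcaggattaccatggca
Ddx18 region: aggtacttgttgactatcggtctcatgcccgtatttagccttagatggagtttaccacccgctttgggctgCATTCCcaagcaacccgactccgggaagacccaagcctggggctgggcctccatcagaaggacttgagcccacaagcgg
Ercc4 region: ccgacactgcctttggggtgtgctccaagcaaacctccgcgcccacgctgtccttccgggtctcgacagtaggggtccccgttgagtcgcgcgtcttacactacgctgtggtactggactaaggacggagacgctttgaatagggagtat
Clvs1 region: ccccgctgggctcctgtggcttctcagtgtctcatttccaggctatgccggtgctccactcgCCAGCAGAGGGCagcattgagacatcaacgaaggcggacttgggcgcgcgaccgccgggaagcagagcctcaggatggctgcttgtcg
Mtx3 region: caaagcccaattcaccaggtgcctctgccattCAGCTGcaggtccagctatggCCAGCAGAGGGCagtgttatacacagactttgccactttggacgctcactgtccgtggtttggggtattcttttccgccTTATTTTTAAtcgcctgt
Zxdb region: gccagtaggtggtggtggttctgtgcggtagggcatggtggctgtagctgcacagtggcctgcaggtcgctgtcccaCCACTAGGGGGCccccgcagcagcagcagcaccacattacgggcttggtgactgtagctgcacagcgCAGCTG

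The capitals in the Adcy9 region are an SP/KLF match (GGGCGG on the minus strand) and 2 copies of a palindrome that holds the NRF1 motif CGCATGCGC on both strands. NRF1 and SP/KLF proteins are activators best known from promoters rich in CpG, and this window held 17 CpG. In the Atp23 region the AP-1 motif TGANTCA occurred 2 times, 77 bp apart, and the window matched itself at 98.6% of bases when shifted by 77 bp. Only the downstream copy overlapped footprints, and this was the 1 member of 1816 whose window matched itself at 90% or more of bases at a shift of 20 to 90 bp. The Irf2bp2 region carried an SRF match and 2 NFI matches, 50 bp apart, all within footprints of both libraries. SRF binds CArG boxes of muscle and growth-response genes, and NFI proteins are transcription factors that bind as dimers. The Cdh20 region had an NF-Y match (AGCCAAT on the minus strand), the Ddx18 region a TEAD match (GGAATG on the minus strand), and the Ercc4 region none of the 26 motifs. In the Cdh20 and Ddx18 windows 39.5% and 22.7% of the words of 32 bases occurred more than 1 time in the assembly, and these matches are letters in the window, not shown sites of a factor. The Mtx3 region held CTCF, MEF2 and CAGCTG matches in footprints of both libraries, and the Zxdb region CTCF and CAGCTG.

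The density of shared peaks fell with distance from gene starts. Members numbered 4.06 per Mb of the 447 Mb of genome that met the position rule, which is 16.9% of the sequenced assembly. Shared intergenic peaks over 10 to 50 kb from a start numbered 9.46 per Mb (6546 peaks), and those up to 10 kb away 19.0 per Mb (8910 peaks). Without the overlap between libraries replicate 1 alone had 12.9 far peaks per Mb and replicate 2 alone 6.44, and over all replicate 1 peaks the nearer classes had 22.8 and 37.2 per Mb, a shallower gradient. On the autosomes members numbered 4.33 per Mb, from 2.55 on chromosome 3 to 6.13 on chromosome 2. The X chromosome, present as 1 copy in males, had 2.15 per Mb (74 members), and the Y chromosome had 2 members in 10.8 Mb. The depth of single chromosomes was not examined.

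**Figure D1:**
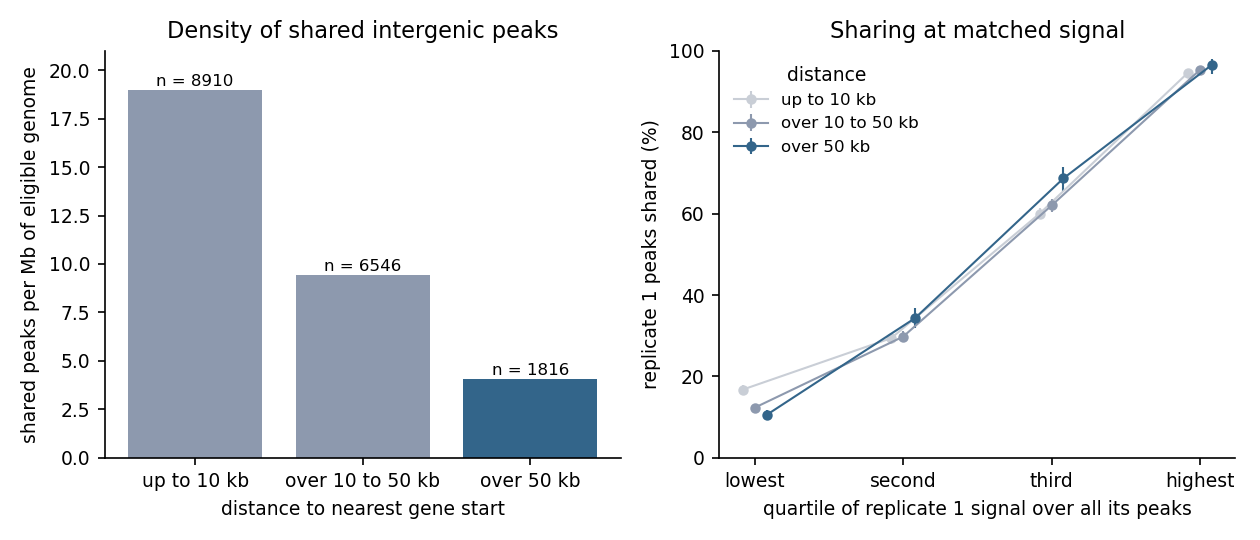
Left, shared intergenic peaks per Mb of eligible genome (bars, with the number of peaks above each) in 3 classes of distance to the nearest gene start. Right, the percentage of replicate 1 peaks shared with replicate 2 (points, with 95% Wilson intervals) in quartiles of replicate 1 signal, where the class over 50 kb rises from 10.5% to 96.6%.

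Fewer far peaks were shared, and they were weaker. Of 5749 far intergenic peaks of replicate 1, 31.6% overlapped a replicate 2 peak (95% Wilson interval 30.4 to 32.8%), against 41.4% of 15803 peaks over 10 to 50 kb and 51.0% of 17475 up to 10 kb. All intervals given here cover counting error over regions only, and no test over the 2 libraries was run. Within quartiles of the signal over all replicate 1 peaks, the far peaks were shared in 10.5%, 34.3%, 68.7% and 96.6% of cases from weakest to strongest, and the peaks over 10 to 50 kb in 12.3%, 29.8%, 62.0% and 95.3%. Sharing of far peaks was therefore lower only in the weakest quartile and higher in the other 3, with intervals that did not overlap for the quartiles at 34.3% and 68.7%. In the weakest quartile the intervals overlapped (9.50 to 11.7% and 11.4 to 13.2%). Median replicate 1 signals in that quartile were 0.266 for far peaks and 0.308 over 10 to 50 kb, so signal was not closely matched there. Positions with a listed q-value below 0.05 were found in replicate 2 within 5.03% of the 3933 far peaks that only replicate 1 had (198 peaks). Such positions lay in 100% of members in replicate 2. The 3933 peaks were chosen for lacking a replicate 2 peak, so their low share follows in part from that choice.

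Strength was read from the authors' signal column, whose values were whole multiples of 1 step per library. Over the members it ran from 0.136 to 9.002 with a median of 0.769 in replicate 1, and from 0.145 to 12.6 with a median of 0.692 in replicate 2. Medians over 10 to 50 kb were 0.958 and 0.889, and those of all shared peaks were 1.23 in both libraries. The median member thus lay below the median nearer peak in each library. The median of all shared peaks was exceeded by 24.5% of members in replicate 1 and by 18.6% in replicate 2. Members made up 1816 of the 49760 shared peaks. Among the 500 strongest shared peaks there was 1 member, and among the 5000 strongest there were 9. Peaks just outside the distance threshold, at 40 to 50 kb (673 peaks), had medians of 0.869 and 0.786, and members just inside it, at 50 to 60 kb (472), had 0.852 and 0.799. From there the medians fell in each step to 0.503 and 0.538 beyond 200 kb (72 members), so the threshold cut a gradual decline.

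The libraries agreed on the order of members within limits. Spearman's rho over the 1816 members was 0.78, against 0.82 for the 6546 peaks over 10 to 50 kb, as a description of regions that share the same 2 libraries. Signals differed by more than 2-fold in 8.21% of members and 6.29% of the nearer peaks, a difference of 1.91 points (Newcombe 95% interval 0.584 to 3.38). In all, 1778 replicate 2 peaks lay behind the 1816 members, so 75 members shared a replicate 2 peak with another. Median peak width was 200 bp in both distance classes, and median GC content of the 150 bp windows was 54% for members and 58% for all shared peaks.

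**Figure D2:**
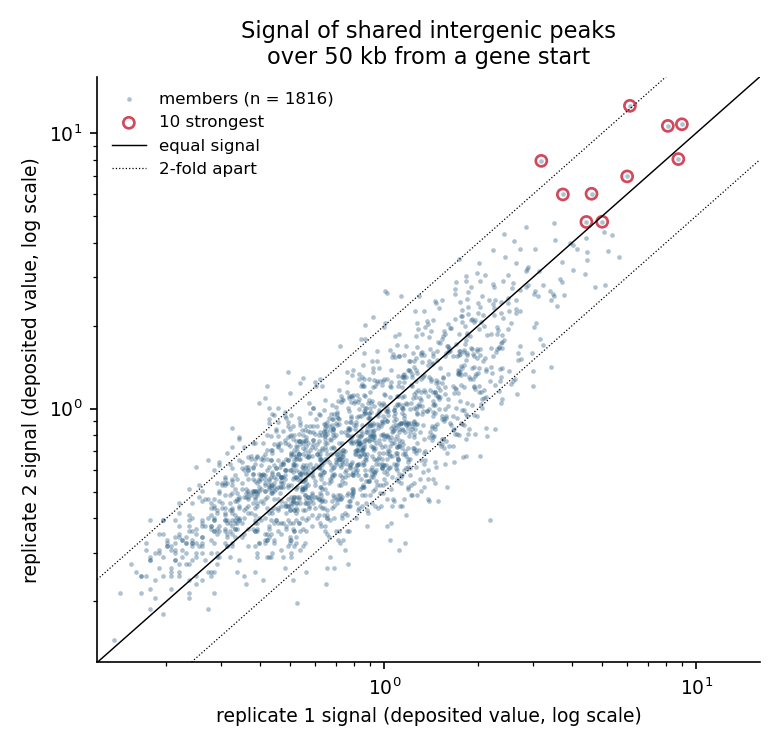
Deposited signal of the 1816 members in replicate 1 (x axis) and replicate 2 (y axis), both on log scales, with the 10 strongest circled and lines of equal signal (solid) and of 2-fold difference (dotted). The strongest members lie at the upper right, with signals from 3.19 to 9.002 in replicate 1 and from 4.76 to 12.6 in replicate 2.

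Members were in the shorter lists and held footprints of both libraries less often than nearer peaks, but in no quartile of matched signal did the interval of the difference lie below 0. The shorter of the 2 deposited peak lists held a member's site in both libraries for 44.5% of members (42.3 to 46.8%) and for 51.0% of peaks over 10 to 50 kb, a difference of -6.44 points (-9.02 to -3.85). Footprints of both libraries lay in 72.8% of members (70.7 to 74.8%) and in 80.5% of the nearer peaks, a difference of -7.71 points (-10.01 to -5.49). The footprint difference went with signal. Within quartiles of the mean signal percentile over members and nearer peaks together it was -3.88 points (-8.44 to 0.747) in the weakest and 0.995, 2.69 and 0.482 points in the other 3, with all 4 intervals spanning 0. In the shorter lists alone it was -0.307 points (-2.28 to 1.33). At matched signal the shorter lists held a larger share of members than of nearer peaks in the middle quartiles, by 12.1 and 9.91 points.

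The strongest member, near Adcy9, an adenylyl cyclase gene, had signals of 9.002 and 10.8. It lay 54.7 kb from the GENCODE start of Adcy9 and 38.0 kb from that of RefSeq. Next came the Atp23 region with 8.12 and 10.6, the Irf2bp2 region with 8.77 and 8.05 and the Cdh20 region with 6.13 and 12.6. The Cdh20 region was 2140 kb from the start of Cdh20, a cadherin gene, and was the member with the highest replicate 2 signal. Part of its window is copied in the assembly, as given below, and whether it resembles ribosomal RNA genes or lies in a known artefact region was not tested. Neither was tested for the Ddx18 region, whose window is also copied in part, or for any other member. The Ddx18 region had 6.01 and 6.96, and the Ercc4 region 4.62 and 6.02. All 6 were higher in replicate 2 except the Irf2bp2 region. The remaining members of the 10 strongest lay near Rnf219 (3.19 and 7.93), Dcn, the gene of the matrix proteoglycan decorin (3.74 and 5.99), Sorl1 (5.00 and 4.77) and Zeb1, a repressor of epithelial genes (4.45 and 4.76).

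Copied sequence was uneven among these regions. In the Rnf219 region 71.4% of the 119 words of 32 bases in the window occurred more than 1 time in the assembly, at up to 12 places, in the Cdh20 region 39.5% with up to 6, in the Ddx18 region 22.7% with up to 3 and in the Atp23 region 21.01% with 2. The other 6 of the 10 strongest had no copied word. Only exact copies within the assembly were counted, so copies that differ in sequence or are absent from the assembly would be missed. A word repeated inside the same window counts as copied too. That applies to the Atp23 region, which matched itself at a shift of 77 bp. Its words with a copy outside the window were not counted separately. Over all members, 94.4% had no copied word and 1.32% (24 members) had over 50% of their words copied, against 1.71% of the nearer peaks. Those 24 members had median signals of 0.346 and 0.470, and 6 of the 24 differed by more than 2-fold between libraries, against 7.98% of the other 1792. No member held a word of the mitochondrial genome (0 of 1816, Wilson upper limit 0.211%). The part of copied sequence in the signals was not tested.

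Far from a GENCODE start did not mean far from every annotated start. RefSeq genes on GRCm38.p6 began within 50 kb of 808 members (44.5%), within 10 kb of 261 and within 1 kb of 54, of which 41 had a long noncoding RNA as the nearest RefSeq gene. For all shared peaks the share within 1 kb of a RefSeq start was 36.3%, against 2.97% of members (2.29 to 3.86%). The Ercc4 region lay 1.03 kb from the start of the RefSeq noncoding gene Gm32596, and the Sorl1 region 31.6 kb from Gm36227. The 54 members within 1 kb had median signals of 0.840 and 0.701, against 0.769 and 0.692 for the other 1762. The 63 members with 10 or more CpG stood higher, at 1.27 and 1.495 against 0.763 and 0.684 for the rest, and 6 of them were within 1 kb of a RefSeq start.

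Of the 5 farthest members, 4 were below the member median of 0.769 in replicate 1 and all 5 were below that of 0.692 in replicate 2. Those beside Bmp2, a bone morphogenetic protein gene, lay 445 and 410 kb from any gene start, with signals of 0.355 and 0.402 for the first and of 0.704 and 0.453 for the other. The members near Rit2 (1.38 and 0.555), Grin2a (0.331 and 0.513) and Kcnv1 (0.450 and 0.393) lay 350 kb, 343 kb and 339 kb from a start. Over all peaks of each library, these 5 stood at percentiles from 14.3 to 76.2 in replicate 1, with the Rit2 member highest, and from 12.6 to 23.1 in replicate 2.

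Motif matches were searched on both strands in the 150 bp windows of the members, in windows 2 kb to either side (3632 flanks, 102 of which overlapped a peak), and in the other shared peaks. CTCF matches were found in 150 members (8.26%, 7.08 to 9.62%) and in 3 of 3632 flanks (0.0826%). The peaks over 10 to 50 kb had more, 10.9%, a difference of -2.63 points (-4.05 to -1.09), and all shared peaks had 6.50%. NFI matches occurred in 25 members (1.38%) and 1 flank. SP/KLF matches were in 7.65% of members, 1.21% of flanks, 9.53% of peaks over 10 to 50 kb and 27.1% of all shared peaks. The difference between members and peaks over 10 to 50 kb was -1.88 points (-3.23 to -0.395). The NRF1 motif was in 4 members and 1 flank, and the GRE motif, the site of steroid receptors such as the glucocorticoid receptor, in 10 members and 3 flanks. GRE matches were at 0.551% of members and 0.214% of the nearer peaks (0.337 points, 0.0468 to 0.805). No GRE match in a member overlapped a footprint of replicate 2. None of the 10 members was in the shorter lists of both libraries, against 44.8% of members without the motif. This interval is 1 of 26, and none was adjusted for their number. C/EBP matches (TTGCNNAA) were in 8.98% of members, 6.75% of flanks and 7.24% of nearer peaks (1.73 points over the nearer peaks, 0.342 to 3.26). For the other motifs except CTCF, CAGCTG and SP/KLF, the interval of the difference between members and nearer peaks spanned 0.

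The CAGCTG E-box was the most frequent match. It stood in 473 members (26.05%, 24.1 to 28.1%), in 5.86% of flanks, in 20.7% of peaks over 10 to 50 kb and in 16.7% of all shared peaks. The excess over the nearer peaks was 5.38 points (3.17 to 7.66). It was 2.29 points (-1.71 to 6.76) in windows under 50% GC, 5.70 points (2.71 to 8.82) from 50 to 58% and 8.54 points (3.84 to 13.5) above. It was 6.90 points (3.67 to 10.3) in the shorter peak lists and also 6.90 points (3.99 to 9.95) with RefSeq starts added to the rule. With the far intergenic peaks of 1 library alone, whether shared or not, it came to 1.34 points (0.125 to 2.58) in replicate 1 and 2.22 points (0.575 to 3.93) in replicate 2. Within quartiles of the mean signal percentile, from weakest to strongest, 25.6%, 24.6%, 25.3% and 30.5% of members had a match. The nearer peaks had 20.3%, 23.5%, 20.1% and 19.1%. The interval of the excess spanned 0 in the quartile with 24.6% of members (1.14 points, -3.03 to 5.58) and lay above 0 in the others. With distance the share went from 23.1% (19.5 to 27.1%) at 50 to 60 kb to 34.6% (27.6 to 42.5%) beyond 150 kb.

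Other E-boxes did not show a gap of that size. All 10 distinct cores of the form CANNTG were counted, a choice made after the CAGCTG share was seen. The CAGGTG core was in 13.5% of members and 12.9% of nearer peaks, CATCTG in 18.5% and 16.7%, and CACGTG, the core of MYC and clock proteins, in 2.15% and 3.28%. The ratio of members to flanks was 4.44 for CAGCTG and at most 1.59 for the other 9 cores. CAACTG was in 10.4% and 8.78%, with an interval of the difference just above 0 (0.0709 to 3.19 points), while that of the MYC core lay below 0 (-1.87 to -0.263). For the 7 cores besides these and the most frequent one, the interval spanned 0. Of the 10 cores, 4 were less frequent in members than in flanks, with CATATG at 1.60% and 4.79% the farthest apart. The flanks had a median GC content of 44% and the members 54%, and these ratios are not matched for GC. Under 50% GC, CAGCTG was in 16.8% of members and 4.18% of flanks. From 50 to 58% GC it was in 27.2% and 11.4%, and above that in 31.6% and 16% (75 flanks). The other cores were not split by GC.

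AP-1 matches were more frequent in members than in flanks, and MEF2 matches less frequent. AP-1 proteins are FOS and JUN dimers that respond to growth signals and stress. Their motif was in 7.10% of members (6.01 to 8.38%), 4.13% of flanks and 7.84% of nearer peaks (-0.733 points, -2.02 to 0.687). MEF2 proteins are partners of MyoD, and their AT-rich motif was in 18 members (0.991%), 3.22% of flanks and 1.34% of nearer peaks. In windows under 50% GC, MEF2 matches stood at 2.59% of members and of nearer peaks alike, and at 4.10% of flanks. From 50 to 58% GC the order was the other way, with 8 of 1006 members (0.795%) and 1 of 731 flanks. The lower share of members was thus seen only over all windows and in those of low GC, where 10 of 386 members had a match. No interval for members against flanks was computed within a GC class. HOX-PBX (0.881% of members, 2.42% of flanks) and ERR (2 members, 13 flanks) had, with MEF2, the lowest ratios of members to flanks.

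**Figure D3:**
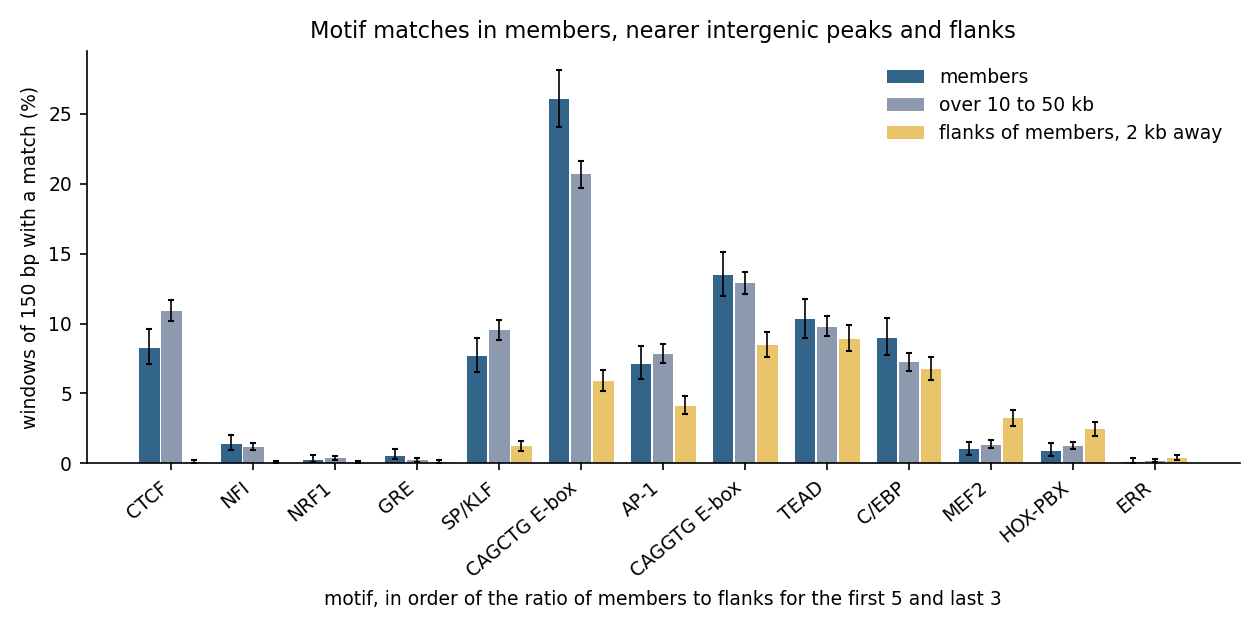
Percentage of 150 bp windows with a match (bars, with 95% Wilson intervals) for 13 motifs in the 1816 members, the 6546 shared intergenic peaks over 10 to 50 kb and the 3632 flanks. CAGCTG reaches 26.05% of members against 20.7% and 5.86%, and MEF2 is lower in members than in flanks.

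Position within the peaks separated the motifs. CTCF matches lay at a median of 10 bp from the midpoint, and their frequency was 1.45 per kb in the 25 bp after it and 1.12 in the 25 bp before it. CAGCTG matches had a broader rise, to 2.44 per kb beside the midpoint, with a median of 31 bp. AP-1 reached 0.903 per kb in the 25 bp before the midpoint and 0.595 after it. MEF2 matches were few at the centre, with 3 in the 25 bp before the midpoint and none in the 25 bp after it, over all members.

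**Figure D4:**
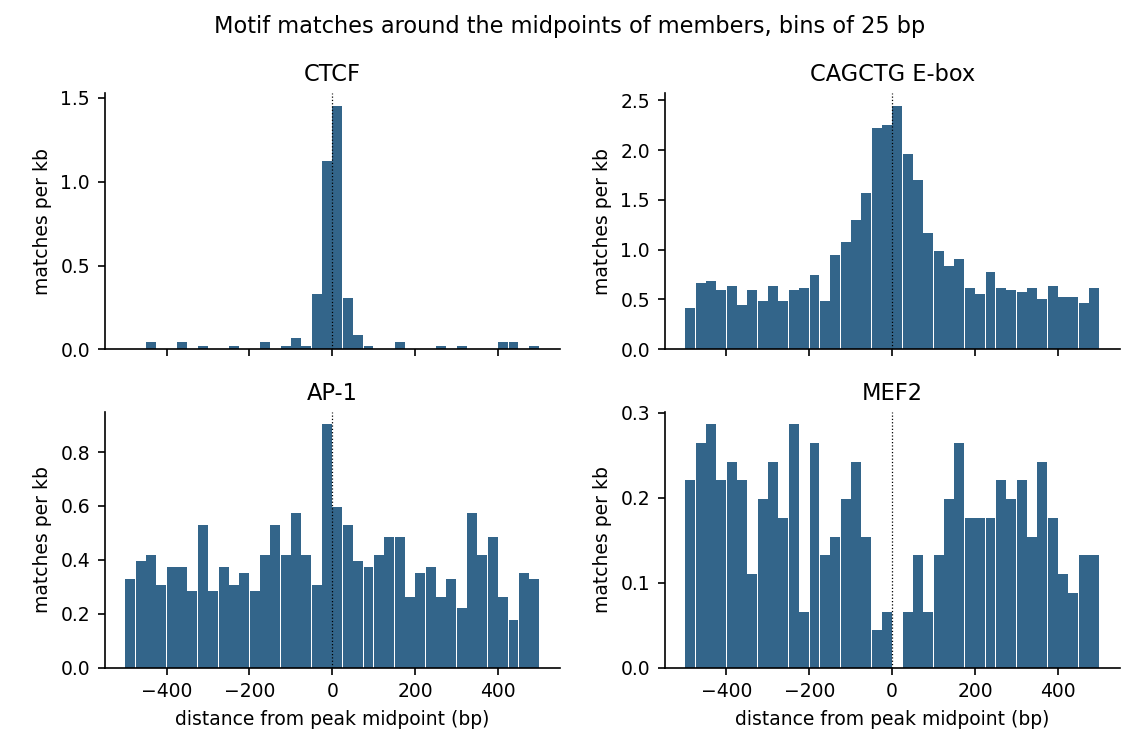
Matches per kb in bins of 25 bp by distance from the peak midpoint (bp) over the 1816 members, for CTCF, CAGCTG, AP-1 and MEF2, with its own vertical scale in each panel. CTCF and CAGCTG rise to 1.45 and 2.44 per kb at the midpoint, and MEF2 dips there.

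Footprints of both libraries covered CTCF matches far more often than E-box matches. Footprints covered 17.9% of the bases of the member windows in replicate 1 and 11.6% in replicate 2. Of 151 CTCF matches, 96.0% overlapped a footprint in replicate 1, 77.5% in replicate 2 and 76.8% in both (69.5 to 82.8%). NFI matches followed with 73.1% of 26 in both (53.9 to 86.3%), and the 9 NRF1 matches, several of them the 2 strands of 1 palindrome, had 8 in both. CAGCTG matches reached 12.7% of 536 (10.1 to 15.8%), CAGGTG 27.6% of 272 (22.6 to 33.2%), AP-1 9.35% of 139 and TEAD 8.04% of 199. YY1 matches (AAGATGGC) had 34.6% of 26. Longer motifs overlap a footprint more easily, and how much of these gaps the length of the motif gives was not tested.

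Further motifs had footprinted matches in members too, and the strongest such member is given for each of 7. For CAGGTG and NFAT these were the Sorl1 and Dcn regions. For RUNX it was a member 104 kb from Tsc22d1, with signals of 4.48 and 3.47, and for C/EBP one near Tmem170b with 2.56 and 2.74. For YY1 it was another member near Clvs1 with 2.40 and 2.90, and for STAT one near Tapt1 with 1.53 and 2.49. For GATA it was a member 210 kb from Meis2, a homeobox gene of limb patterning, with 1.64 and 1.957.

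CTCF sites differed from the other members in strength and between the libraries. Members with a CTCF match had median signals of 0.887 and 0.906, and members without one 0.757 and 0.679. In the shorter lists of both libraries were 58.7% of the former (50.7 to 66.2%) and 43.3% of the latter (40.9 to 45.7%). Among the 181 weakest members none had a CTCF match, and among the 182 strongest 22 did (12.1%). None of the 10 strongest had one. The deficit against nearer peaks lay at the strong end, with 11.99% of members and 18.4% of nearer peaks in the top quartile (-6.41 points, -10.1 to -1.85), while in the other 3 quartiles the interval spanned 0. Beyond 100 kb the share of members with a match was lower, 5.13% of 448. Of 15 adjacent pairs of CTCF members within 1 Mb, 12 had matches on the same strand, 2 were divergent and 1 convergent. Only members were paired, so CTCF matches in other peaks can lie between them, and loops were not measured.

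The balance of the libraries went with the motif. Replicate 2 had the higher signal in 58.7% of members with a CTCF match (50.7 to 66.2%) and 46.5% of those without. It was higher in 36.4% of members with an AP-1 match (28.6 to 45.0%) against 48.4% without, and in 40.6% of members with CAGCTG (36.3 to 45.1%) against 49.96% without. Members with CAGGTG, the E-box that differs by 1 base, went the other way, with 60.8% higher in replicate 2 (54.6 to 66.7%) against 45.4% without. The peaks over 10 to 50 kb with a match gave 63.4% for CTCF, 35.5% for AP-1, 38.6% for CAGCTG and 61.9% for CAGGTG. Which property of the libraries goes with it was not tested.

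Most members had no other member close by. Peaks that were not members were left out of this count, so it does not measure isolation from all peaks. The same count was not made for the nearer peaks. Joined across gaps of up to 12.5 kb, the members formed 1402 clusters, of which 1126 were a single member (62.0% of members). There were 89 clusters of 3 or more, which held 316 members (17.4%). The largest lay at chr11:79788581-79806480 with 10 members, 156 kb from the start of Utp6, a gene of ribosomal RNA processing. Next was chr6:51163341-51178780 with 9 members in 15.4 kb, 254 kb from Nfe2l3, which encodes a stress-response transcription factor, and all 9 were in the shorter list of replicate 1. On chromosome 2 lay 6 members at chr2:27765021-27786260, nearest to the retinoid receptor gene Rxra, and 5 at chr2:27799161-27827160, nearest to the collagen gene Col5a1.

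The nearest protein-coding gene is a description of position and does not identify a target. Its start lay at a median of 150 kb from a member, over 200 kb away for 685 members (37.7%) and over 1 Mb away for 22. The nearest start of any kind was that of a lincRNA for 504 members, of a protein-coding gene for 447 and of a processed pseudogene for 403. Upstream and downstream of the nearest coding start were 955 (52.6%) and the other members. Of 21911 protein-coding symbols, 937 (4.28%) were nearest to 1 or more members, and 209 (0.954%) to 3 or more. A gene beside a long desert has more room to be the nearest, and the length of that space was not tested.

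The genes with most members were Nfe2l3 (14 members, 216 to 313 kb away) and Klf4, a zinc-finger transcription factor (12 members, 184 to 362 kb). All 12 Klf4 members lay upstream, with signals from 0.231 to 1.80 in replicate 1 and from 0.325 to 1.44 in replicate 2. Utp6, Sox9, the cadherin gene Cdh26 and the predicted gene Gm10295 had 10 each. The Nfe2l3 members had medians of 1.10 and 1.18 and a strongest member with 5.68 and 3.55. Sox9, the regulator of cartilage and tendon progenitors, had 5 members upstream and 5 downstream, from 145 to 601 kb, with medians of 0.497 and 0.756. Bod1 had 9, and Qk, an RNA-binding protein of muscle and glia, Bcl2l11, an inducer of cell death, Arglu1, Pja1 and the predicted gene Gm26897 had 8 each. Clvs1, Mpdz and the predicted gene Gm826 completed the 15 with 7 each.

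**Figure D5:**
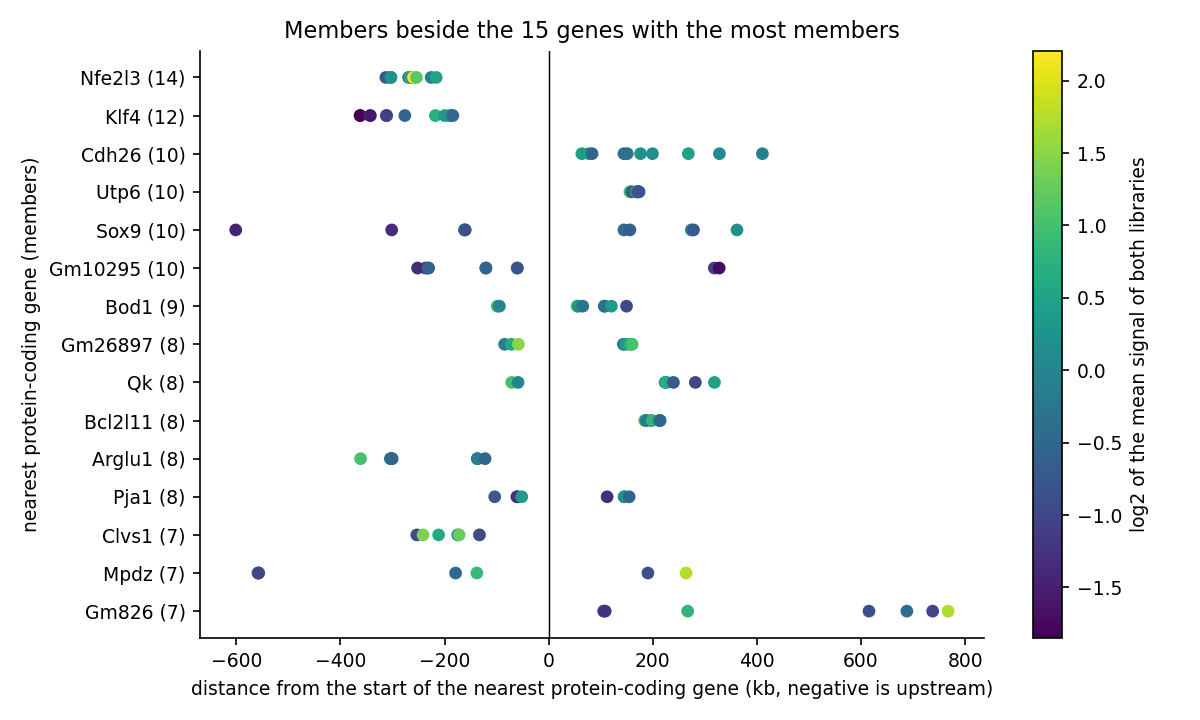
Distance of each member from the start of its nearest protein-coding gene (kb, negative upstream), for the 15 genes with most members, coloured by the log2 of the mean signal of both libraries, with the number of members in brackets. The Nfe2l3 and Klf4 members all lie upstream, and those of Sox9 lie on both sides.

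The gene lists differed in how many of their genes were nearest to a member. The list of connective tissue, tendon and progenitor genes had 13 of 30 genes nearest to a member, and 7 of 30 nearest to 3 or more, beside the 4.28% and 0.954% of all symbols. In it were Tgfbr2, the type II receptor of TGF-beta, with 6 members, all upstream at up to 294 kb, and its ligand gene Tgfb2 with 5 at 95.8 to 292 kb. The strongest Tgfbr2 members had signals of 2.71 and 2.26, and of 2.24 and 3.77. Runx1, a transcription factor of blood and of injured muscle, had 5 members upstream at 123 to 327 kb, with medians of 1.69 and 1.10. Sox6, a repressor of slow-fibre genes in muscle, had 4 at 572 to 612 kb, the Wnt effector gene Tcf7l2 had 3, and Dcn had 3 at 134 to 166 kb.

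Limb and mesoderm patterning genes counted 10 of 31. Pitx1, which sets hindlimb identity, had 4 members, all upstream at 63.0 to 141 kb, with a strongest member at 1.83 in replicate 1 and 0.957 in replicate 2. Tbx3 had 3, and Nr2f1 had 3 at 818 to 830 kb with signals of at most 0.308 and 0.410. Of the growth factor and signalling ligands 9 of 32 counted. Among them were Cxcl12, a chemokine gene, with 5 members, Pdgfa with 4, whose strongest had 3.73 and 2.87, and the BMP family genes Bmp2 and Gdf6 with 3 each. Myogenic factors and cofactors counted 6 of 24, where Eya4, a transcriptional cofactor, had 4 members, and Mef2a and Tcf4 were among those with 1. Atrophy, metabolism and clock genes counted 5 of 24, with Klf4 in the list and Foxo3 and Pdk4 at 2 members each. Endothelial genes counted 5 of 25, led by Cdh5 with 5 members upstream at 188 to 612 kb, and neural adhesion genes 3 of 35, led by Cdh11 with 4.

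No gene of the sarcomere and calcium handling list was nearest to a member (0 of 30), where 4.28% of all symbols were. A list of 30 genes is too short to tell these shares apart. The same list had 4 of 30 genes nearest to a peak over 10 to 50 kb (13.3%), against 15.5% of all symbols. Myogenic factors had 12 of 24 there, and the connective tissue list 17 of 30. The lists are short, every list but the sarcomere one was also above 15.5% for the nearer peaks, and the length of the intergenic space beside their genes was not tested.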

How the data were processed

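DNase-seq peaks, footprints and per-position q-values of 2 gastrocnemius libraries were used. The peak lists carry a signal that the authors deposited. In each library all signals were whole multiples of 1 step, 0.00591 in replicate 1 and 0.00854 in replicate 2, which is read here as 1 tag scaled to library size, a reading that no source states. The deposited q-values are listed only below 0.05, and the deposited footprint lists carry 1 constant value in every row, so footprints were not ranked. Peaks were called per library on mm10, per the notes deposited with the files. The names of aligner and callers are not given in any source used. From the longer list of each library, distances ran from peak midpoints to GENCODE M21 gene starts, and sequences came from GRCm38.p6, the same assembly as mm10 (Python 3.11.15, pysam 0.24.0, samtools 1.23.1, bedtools 2.31.1). Motif consensus sequences (26) were matched exactly on both strands. Shares have 95% Wilson intervals and their differences 95% Newcombe intervals, and both cover counting error only. No test over samples was run, since 2 libraries of 1 group leave 1 degree of freedom. The functions were tested on simulated data. Reads that differ between the CAST/EiJ allele and the reference can align less well, which was not tested.

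The members, gene lists and motifs were chosen with earlier results of these data known. The named regions are the 10 strongest by mean percentile, the 5 farthest and the strongest per motif with a footprinted match. The named genes are the 15 with most members and the list genes with 3 or more, and some list genes below 3 and the extra E-box cores were added after their values were seen. Named motifs are the 5 highest and 3 lowest ratios of members to flanks with CTCF, MEF2, AP-1 and CAGCTG, and others named were chosen after their values were seen. Alternatives varied the peak list, overlap, library, distance, annotation, crowded regions and motif window. RefSeq starts and repeat-masked windows were alternatives added after seeing the data.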

Additional observations from a re-analysis of the deposited data

How the results depend on the processing

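Of 148 values under alternatives, 84 stayed within the limit set for their kind and 64 did not. That limit was 1.5 times for counts and density, the Wilson interval for shares and the SD of the 2 library medians (0.0543) for signals. In the shorter peak lists there were 807 members, 1.81 per Mb, nearest to 544 genes, with median signals of 1.16 and 1.08, footprints of both libraries in 94.2% and CTCF matches in 11.03%. With a reciprocal overlap of 50% the medians were 0.869 and 0.786, 55.2% were in both shorter lists, 82.4% had footprints and 9.81% CTCF matches. Over 100 kb there were 448 members, 2.33 per Mb, nearest to 265 genes, with medians of 0.633 and 0.598, 38.6% in both shorter lists, 68.1% with footprints, 5.13% with CTCF and 29.2% with CAGCTG. Over 25 kb there were 4323, nearest to 2049 genes, with medians of 0.840 and 0.760, 76.3% with footprints and 23.5% with CAGCTG. With protein-coding starts alone there were 6496, nearest to 2268 genes, with medians of 0.834 and 0.760, 47.5% in both shorter lists, 75.03% with footprints and 22.7% with CAGCTG. With RefSeq starts added after seeing the data there were 1008, nearest to 607 genes, with medians of 0.680 and 0.624, 41.3% in both shorter lists, 69.7% with footprints and 28.5% with CAGCTG. Coordinates of replicate 2 gave footprints in 70.2%. A 100 bp window gave AP-1 in 5.29%, CAGCTG in 19.4% and MEF2 in 0.330%, and the whole peak 11.1%, 32.05% and 1.98%. The smaller or larger window and set explain such shifts in counts by construction, and the cause of the other shifts was not tested.

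With 1 library alone and no overlap asked, members numbered 2875 (without replicate 1) to 5749 (without replicate 2), or 6.44 to 12.9 per Mb, nearest to 1260 to 1737 genes. Median signal was 0.390 in replicate 1 and 0.487 in replicate 2. Shares in both shorter lists were 14.1 to 28.1%, with footprints 23.1 to 44.4%, with CTCF 4.05 to 5.22%, AP-1 5.53 to 8.30%, CAGCTG 20.1 to 21.2% and MEF2 0.696 to 1.496%. The excess of CAGCTG over the peaks at 10 to 50 kb stayed above 0 and the deficit of CTCF below 0 in the 6 peak sets compared (as reported, shorter lists, reciprocal overlap, either library alone and RefSeq starts), from 1.34 to 6.90 points and from -4.71 to -2.52 points. No paired analysis was possible because there is only 1 group. Replicate 2 had fewer peaks, the part of depth in the calls of weak members was not tested, and 2 libraries give a spread with 1 degree of freedom.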
